A study of Mus musculus with 12 samples.

Results

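The genes described here encode the type I interferon receptor and the proteins that carry its signal to the nucleus: Ifnar1, Ifnar2, Jak1, Tyk2, Stat2, Irf9, Irf1 and Irf2. They were taken as the rows of the array table whose single gene symbol is one of these names, which gave 15 probe sets for 8 of the 18193 genes measured. RNA came from pulmonary CD11c+ cells of mice infected with Pneumocystis, a fungus of the lung, given into the trachea. There were 4 groups of 3 mice, each mouse on its own Affymetrix array: wildtype and IFNAR-/- mice at day 7 and at day 14 after infection. All mice were infected, so no group shows the uninfected level. IFNAR-/- mice lack the type I interferon receptor; the labels give neither the subunit nor the part of the gene that was altered, nor the sex, age or strain background of any mouse. The cells were bound to magnetic beads carrying anti-CD11c antibody, and CD11c marks both alveolar macrophages and dendritic cells of the lung. In such bulk RNA, fewer cells of a type and less RNA per cell cannot be told apart.

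Type I interferons, interferon beta and the interferon alphas, bind a receptor made of IFNAR1 and IFNAR2. The kinases TYK2 and JAK1 sit on these chains and phosphorylate STAT2 and its STAT partner, which join IRF9 to form ISGF3, the factor that binds interferon-stimulated response elements (ISRE) and switches on antiviral genes. IRF1 and IRF2 bind related elements, IRF1 mostly as an activator and IRF2 mostly as its antagonist. Several genes of the pathway, Stat2, Irf9 and Irf1 among them, are known to be induced by interferons themselves, so the transducers are also outputs of the signal.

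The promoter windows of the members show which of them carry the letters of these elements. RefSeq windows of 250 bases before the start site (build GRCm38.p6) were found for all 8 genes, 10 windows in all, and were searched on both strands for the ISRE core GAAANNGAA and for the interferon-gamma-activated sequence (GAS) TTCNNNGAA, which can overlap each other. Stat2 and Irf9 are printed because they are the members that passed the test below, and Irf1 and Irf2 because they are the opposed pair of regulators. Capitals mark a match. The windows are chr10:128270248-128270497 (plus strand) for Stat2, chr14:55603735-55603984 (plus) for the first window of Irf9, chr11:53769764-53770013 (plus) for the first window of Irf1 and chr8:46739495-46739744 (plus) for Irf2.
Stat2: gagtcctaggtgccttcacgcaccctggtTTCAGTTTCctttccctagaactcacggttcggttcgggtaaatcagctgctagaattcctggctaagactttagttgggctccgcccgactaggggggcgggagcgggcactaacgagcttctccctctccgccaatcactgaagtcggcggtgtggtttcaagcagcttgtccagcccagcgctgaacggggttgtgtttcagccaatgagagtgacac
Irf9: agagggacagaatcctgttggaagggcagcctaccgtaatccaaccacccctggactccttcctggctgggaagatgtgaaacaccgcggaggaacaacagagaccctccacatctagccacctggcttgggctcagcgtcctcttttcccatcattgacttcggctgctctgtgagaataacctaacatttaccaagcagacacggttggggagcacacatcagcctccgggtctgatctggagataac
Irf1: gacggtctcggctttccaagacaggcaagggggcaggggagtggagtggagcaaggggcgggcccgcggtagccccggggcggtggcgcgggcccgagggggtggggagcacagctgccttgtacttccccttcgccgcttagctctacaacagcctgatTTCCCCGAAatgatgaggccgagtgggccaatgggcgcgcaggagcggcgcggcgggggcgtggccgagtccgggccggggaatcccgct
Irf2: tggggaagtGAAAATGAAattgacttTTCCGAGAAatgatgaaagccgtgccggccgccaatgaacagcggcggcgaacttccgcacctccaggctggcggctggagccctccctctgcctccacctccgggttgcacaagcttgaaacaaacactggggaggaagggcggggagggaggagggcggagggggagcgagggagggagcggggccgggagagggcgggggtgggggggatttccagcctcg

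The Stat2 window held an ISRE core on the minus strand, from 221 to 213 bases before the start. Irf1 held a GAS from 90 to 82 bases before the start. Irf2 held both, an ISRE core at 241 to 233 bases and a GAS at 224 to 216 bases. A GAS also lay in the Ifnar2 window, at 214 to 206 bases before the start, in the letters TTCCTGGAA. No match was found in either Irf9 window, in the second Irf1 window or in those of Ifnar1, Jak1 and Tyk2. Of 32851 windows of the same length, 7.13% held an ISRE core and 7.02% a GAS. Among windows of known ISGF3 target genes, an ISRE core was found in 9 of 20. A match is a description of the letters and not a bound site, and the absence of one says only that these letters are not in this window.

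Each deposited value is a linear ratio of a probe set to about its own median over the 12 arrays, used here as a log2 ratio. A value of 0 is therefore the middle of the 12 arrays for that probe set, and levels cannot be compared between genes. The widest array, IFNAR-/- day 14 mouse 2, spread over an interquartile range of 0.582 (log2), against 0.188 to 0.371 for the rest. IFNAR-/- day 7 mouse 3 stood apart as well: its Y-linked Eif2s3y was at 2.89 and its Xist at -3.98, against -0.054 to 0.198 and -1.20 to 1.22 elsewhere, and its median over 8 endothelial markers was 2.66. Wildtype day 7 mouse 1 also held a high endothelial median, 2.02. The defining marker of the sort, Itgax, the gene of CD11c, ran from -0.28 to 0.25 over all arrays, and on this scale its level cannot be checked. Differences between genotypes on a day that gain or lose a call without both arrays that stood apart are given that way too, for members singly and for other genes of the pathway by name or count.

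Of the 8 genes, 1 passed the test between genotypes at day 7, where 2.64% of all genes did, and 0 passed at day 14, where 5.04% did (limma, Benjamini-Hochberg adjusted p under 0.05 over all genes). Without adjustment, the limma p was under 0.05 for Ifnar1, Stat2 and Irf9 at day 7 and for Jak1, Irf9 and Irf2 at day 14. The share of all genes under that unadjusted threshold is not given here, so the names at unadjusted p are descriptions only. Over the mean of both days 1 member passed, with 4.19% of all genes, and the unadjusted p was under 0.05 for Ifnar1, Irf9 and Irf2. Between day 14 and day 7, 1 member passed in wildtype mice, where 7.98% of all genes did. In IFNAR-/- mice 0 passed, where 12.3% of all genes did. The unadjusted p between days was under 0.05 for Jak1, Stat2 and Irf9 in wildtype mice and for Irf2 alone in IFNAR-/- mice. The change of the genotype difference between the days was passed by 0 members and by 2.48% of all genes, with an unadjusted p under 0.05 for Jak1 and Stat2. The member that passed between genotypes was Irf9, and the member that passed between days was Stat2. These comparisons share arrays: those at one day or in one genotype use the same mice.

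**Figure D1:**
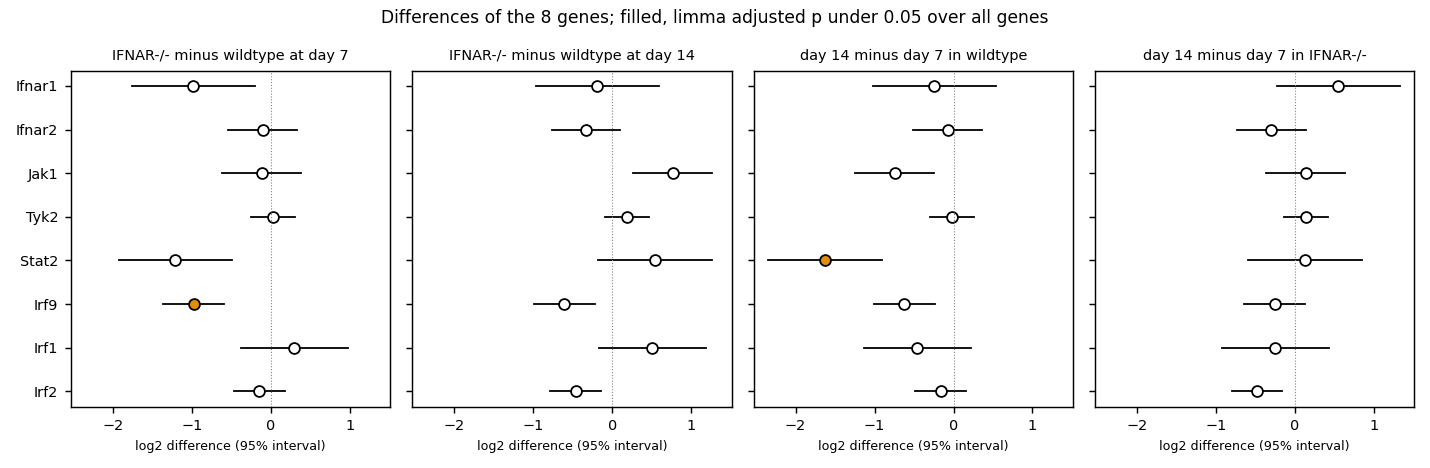
Differences of the 8 genes on the log2 scale with 95% intervals (limma), in 4 panels: IFNAR-/- minus wildtype at day 7 and at day 14, and day 14 minus day 7 in each genotype. Filled points passed the adjusted threshold: Irf9 at -0.98 in the first panel and Stat2 at -1.63 in the third.

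Ifnar1, the chain of the receptor that binds TYK2, was lower in IFNAR-/- cells on day 7, but its probe sets did not behave alike and the gene as a whole did not pass the test. As the mean of its probe sets, the day 7 values were 0.076, 0.64 and 0.065 in wildtype mice 1, 2 and 3 and -0.53, -1.38 and -0.27 in IFNAR-/- mice. The day 14 values were -0.15, 0.074 and 0.12 in wildtype and 0.10, -1.01 and 0.39 in IFNAR-/- mice. The groups did not overlap at day 7, where all IFNAR-/- arrays lay lower, and overlapped at day 14. Arrays of both genotypes did not overlap at day 7 in the same direction for 11.6% of all genes. The difference at day 7 was -0.98 ± 0.36 (SE, n = 3 per group; limma adjusted p 0.208), and at day 14 it was -0.19 ± 0.36 (adjusted p 0.821). Without both arrays that stood apart, the limma difference at day 7 was -1.21 with an adjusted p of 0.0382 and passed, while at day 14 it turned to 0.23 and did not pass; day 14 minus day 7 in IFNAR-/- mice was then 1.199 (adjusted p 0.0351) and passed. In the order of group means, wildtype day 7 (0.26 ± 0.33, SD) was followed by wildtype day 14 (0.013 ± 0.142), IFNAR-/- day 14 (-0.17 ± 0.74) and IFNAR-/- day 7 (-0.72 ± 0.58), and each neighbouring pair overlapped.

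Of the probe sets of Ifnar1, 1449026_at passed between genotypes over both days. Its day 7 values were 0.017, 0.63 and -0.017 in wildtype mice and -1.34, -1.41 and -0.39 in IFNAR-/- mice. Those of day 14 were 0.24, 0.88 and 0.62 in wildtype mice and -0.051, -0.64 and 0.004 in IFNAR-/- mice. IFNAR-/- arrays lay below all wildtype arrays of the same day on both days. The limma difference was -1.26 ± 0.30 at day 7 (adjusted p 0.068), -0.80 ± 0.30 at day 14 (0.159) and -1.03 ± 0.21 over both days (0.0261), adjusted over all probe sets. The call over both days held without both arrays that stood apart (adjusted p 0.00795) and was lost without IFNAR-/- day 7 mouse 1 (0.0734), wildtype day 7 mouse 2 (0.0613), wildtype day 14 mouse 2 (0.0661) or wildtype day 14 mouse 3 (0.0618). On the other probe set, 1442222_at, the limma difference was -0.71 ± 0.50 at day 7 (adjusted p 0.742), 0.43 ± 0.50 at day 14 (0.697) and -0.14 ± 0.36 over both days (0.909), so both probe sets had a difference below 0 at day 7 and their signs were opposite at day 14. There mouse 2 of each IFNAR-/- group was the low array, at -1.35 on day 7 and -1.39 on day 14, while the other four IFNAR-/- arrays ran from -0.14 to 0.77. Within the IFNAR-/- mice 1449026_at ranged from -1.41 to 0.004. The correlation of the probe sets over the 12 arrays was 0.28.

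Ifnar2, the other chain, which binds JAK1, did not pass in any comparison. Its gene values overlapped between genotypes at day 7 (difference -0.10, 95% interval -0.54 to 0.33) and at day 14 (-0.33, interval -0.77 to 0.11). Its 3 probe sets pointed in different directions at day 14. On 1427691_a_at the IFNAR-/- arrays held -0.26, -0.20 and -0.31, below the wildtype arrays at -0.15, 0.38 and 0.20. On 1440169_x_at they were also lower, at -0.21, -1.66 and -0.36 against -0.037, 0.20 and 0.27, with mouse 2 far below its group. On 1451462_a_at they were higher, at 0.17, 0.16 and 0.15 against -0.23, -0.006 and -0.15. None of these differences passed with limma: they were -0.40 ± 0.20 (adjusted p 0.311), -0.88 ± 0.33 (0.166) and 0.29 ± 0.18 (0.424). The suffix _a marks probes shared by transcripts of 1 gene and _x probes that may also match other sequences; which transcript forms these probe sets read was not analysed here.

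Both receptor genes lie on mouse chromosome 16 in a group of cytokine receptor genes, in the order Ifnar2, Il10rb, Ifnar1, Ifngr2. The neighbours between and beside them, which encode a chain of the interleukin-10 receptor and a chain of the interferon-gamma receptor, did not pass in either genotype comparison. At day 7 Il10rb differed by -0.27 ± 0.12 (limma adjusted p 0.378) and Ifngr2 by -0.36 ± 0.14 (0.247). At day 14 the values were 0.029 ± 0.124 for Il10rb and -0.026 ± 0.140 for Ifngr2.

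**Figure D2:**
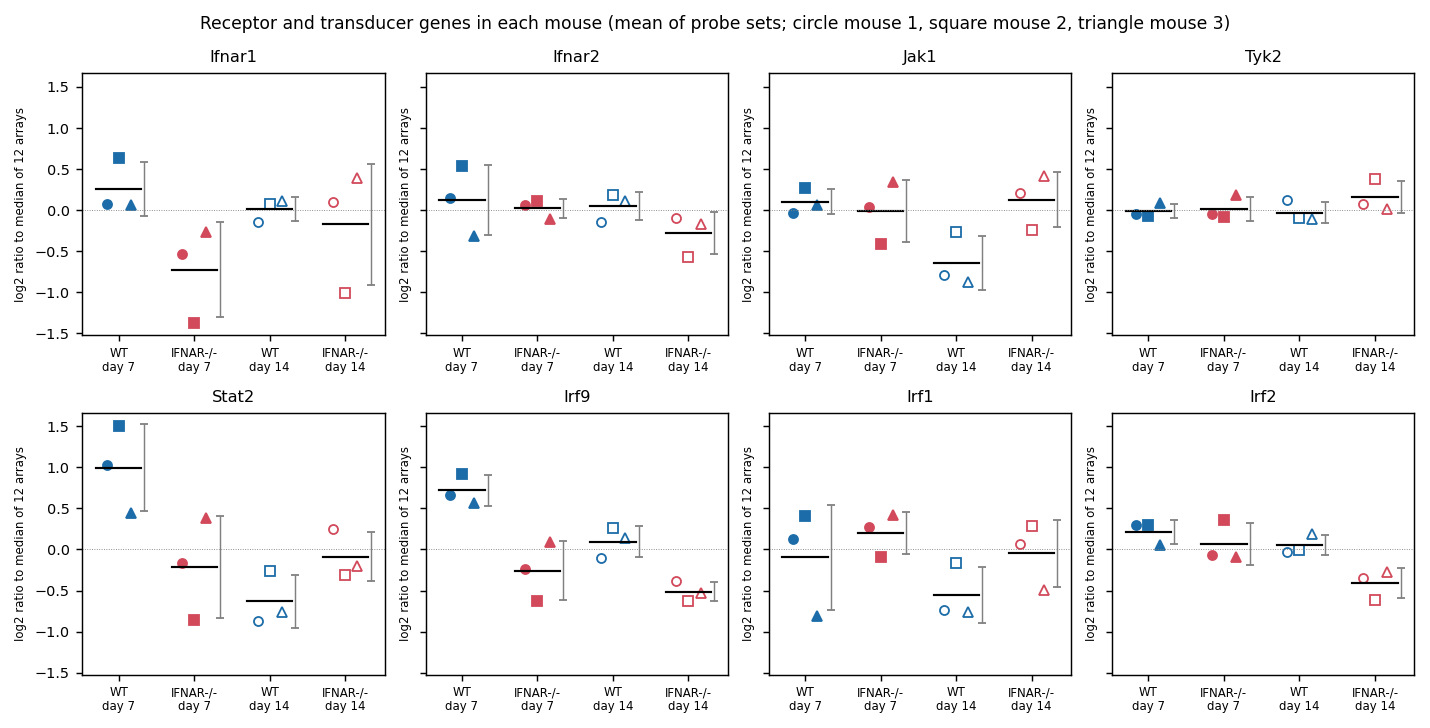
Log2 ratios of the 8 genes (mean of their probe sets, against the median of the 12 arrays) in each mouse; circles, squares and triangles are mice 1, 2 and 3, blue wildtype, red IFNAR-/-, filled day 7 and open day 14. Horizontal lines are group means and bars 1 SD to each side; for Irf9 all IFNAR-/- points lie below all wildtype points of the same day.

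Jak1, the kinase on the IFNAR2 chain, lay above the wildtype arrays in all IFNAR-/- arrays at day 14 without passing the test, and the whole of this difference lay in 1 of its 3 probe sets. As the mean of its probe sets it held -0.79, -0.26 and -0.87 in wildtype mice at day 14 and 0.20, -0.24 and 0.42 in IFNAR-/- mice, with no overlap. Arrays at day 14 did not overlap in this direction for 10.2% of all genes. The difference was 0.77 ± 0.23 (limma adjusted p 0.0811), and day 14 minus day 7 in wildtype mice was -0.75 ± 0.23 (0.0728), so neither passed. Without both arrays that stood apart the limma values were 0.95 (adjusted p 0.031) and -0.74 (0.0263), and both passed. At day 7 the difference was -0.11 ± 0.23 (0.944). The group means ran from IFNAR-/- day 14 (0.13 ± 0.33, SD) through wildtype day 7 (0.10 ± 0.16) and IFNAR-/- day 7 (-0.011 ± 0.382) to wildtype day 14 (-0.64 ± 0.33), and neighbours overlapped in each case.

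Probe set 1433804_at gave -0.13, 0.76 and 0.37 in wildtype mice at day 7, and -2.74, -1.26 and -2.78 in those of day 14. In IFNAR-/- mice it gave 0.13, -0.88 and 1.05 at day 7, followed by 0.86, -0.81 and 1.07 in those of day 14. The wildtype day 14 arrays lay below all others. By limma over all probe sets the difference at day 14 was 2.63 ± 0.59 (adjusted p 0.0344) and that between days in wildtype mice -2.59 ± 0.59 (0.0283), both past the threshold. The other Jak1 probe sets, which carry the same sequence accession in the array annotation, showed nothing of the kind: at day 14 the difference was -0.27 ± 0.14 on 1433803_at (0.335) and -0.061 ± 0.136 on 1433805_at (0.855). The call at day 14 was lost without IFNAR-/- day 14 mouse 1 (0.087), IFNAR-/- day 14 mouse 3 (0.102), wildtype day 14 mouse 1 (0.0916), wildtype day 14 mouse 3 (0.125) or IFNAR-/- day 7 mouse 1 (0.0549), with differences of 2.29 to 2.63. The call between days in wildtype mice was lost without wildtype day 7 mouse 1 (limma adjusted p 0.0573), mouse 2 (0.102) or mouse 3 (0.0788), or without wildtype day 14 mouse 1 (0.0903) or mouse 3 (0.102). When the poly-A control signal entered the fit neither call held (0.0635 at day 14 and 0.18 between days).

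A control signal of RNA integrity moved with this probe set. The 5' over 3' log2 signal of the actin and Gapdh control probe sets, which falls when transcripts are truncated, read -0.24, -0.18 and -0.91 for the wildtype arrays of day 14 against 0.12, 0.064 and 0.16 for the IFNAR-/- arrays, with no overlap. The day 7 arrays read 0.078, 0.18 and 0.08 (wildtype) and 0.078, -0.52 and 0.11 (IFNAR-/-). Over the 12 arrays its correlation with 1433804_at was 0.81, against -0.22 for 1433803_at and 0.15 for 1433805_at. The ribosomal 18S control moved as well: at day 14 its log2 ratio was 2.50, 0.30 and 0.93 in wildtype mice and -0.25, 0.92 and -0.45 in IFNAR-/- mice, and all day 7 arrays lay between -0.24 and 0.10. Its correlation was -0.80 with 1433804_at, 0.87 with 1433803_at, -0.31 with 1433805_at and -0.63 with the Stat2 probe set 1450403_at. Its part in these values was not tested. For 1433804_at, with actin and Gapdh 5' over 3' values as covariate, the limma difference at day 14 was 1.53 (adjusted p 0.453). Its difference between days in wildtype mice was then -1.50 (limma adjusted p 0.401), and neither passed. Since the 5' over 3' signal separates the day 14 groups completely, its part in the difference and that of genotype cannot be told apart.

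**Figure D3:**
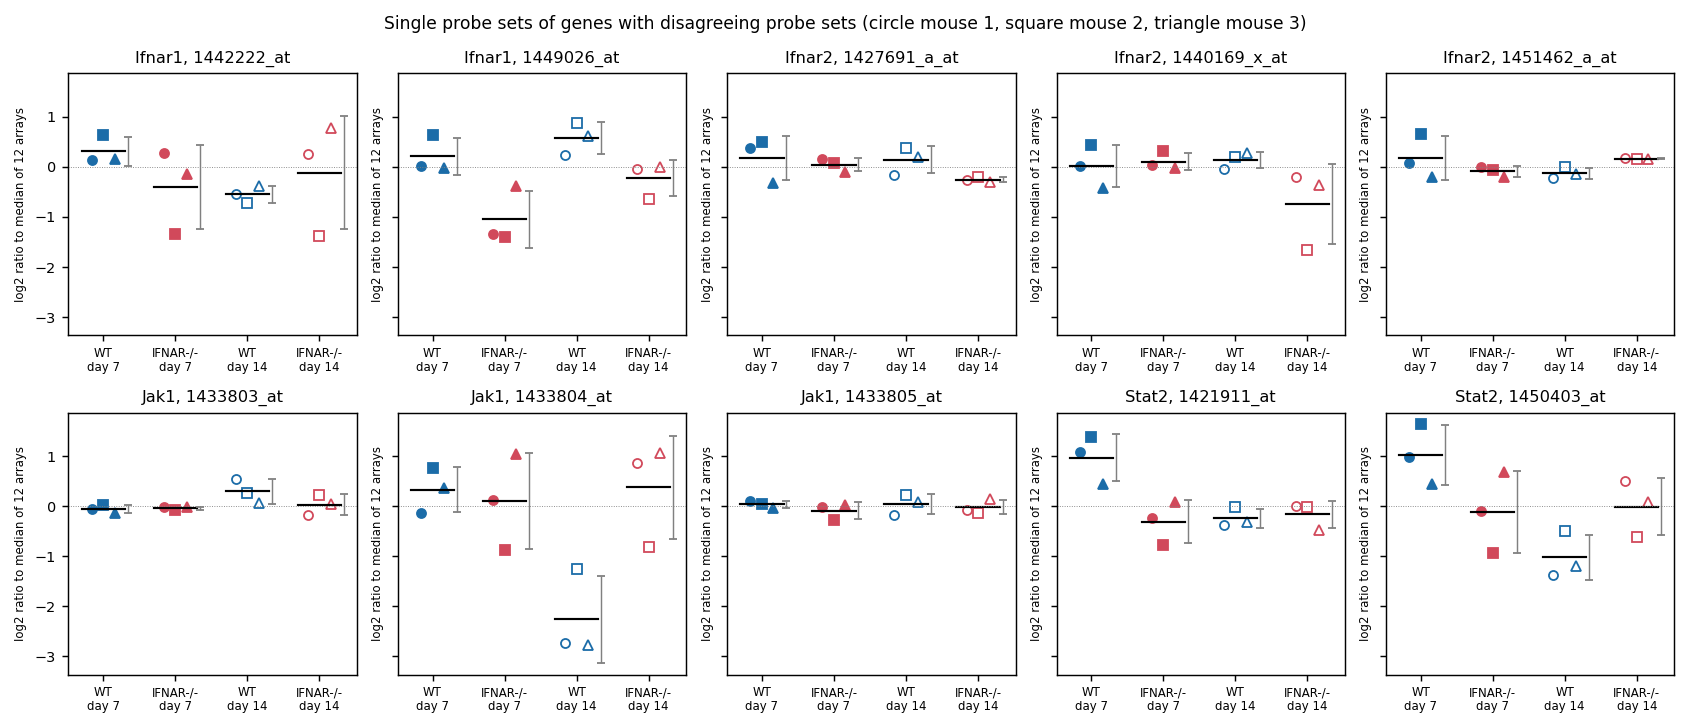
Log2 ratios of single probe sets of Ifnar1, Ifnar2, Jak1 and Stat2 in each mouse, drawn as in the plot of gene values; lines are group means and bars 1 SD to each side. The wildtype day 14 arrays of Jak1 1433804_at lie at -2.74, -1.26 and -2.78, while the other Jak1 probe sets stay between -0.28 and 0.55 on all arrays.

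Tyk2, the kinase on the IFNAR1 chain, varied least of the members. Its standard deviation over the 12 arrays was at percentile 19.8 of all genes, and its groups overlapped in each comparison. The difference was 0.028 at day 7 (95% interval -0.25 to 0.30) and 0.19 at day 14 (-0.088 to 0.461), so a genotype difference beyond 0.461 on the log2 scale in either direction lay outside both intervals. Its highest value, 0.38, was in IFNAR-/- day 14 mouse 2, the array with the widest spread, and came from probe set 1432576_at at 0.81.

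Stat2, the STAT that is bound to IRF9 in ISGF3, was highest in wildtype cells at day 7 and fell in wildtype mice by day 14. The wildtype arrays read 1.03, 1.50 and 0.45 at day 7, then -0.87, -0.26 and -0.76 at day 14. The IFNAR-/- arrays read -0.16, -0.86 and 0.38, then 0.25, -0.31 and -0.20. All wildtype day 7 arrays lay above all other arrays, and the other groups overlapped. At day 7, IFNAR-/- arrays lay below wildtype arrays without overlap for 11.6% of all genes. In wildtype mice, day 14 arrays lay below day 7 arrays without overlap for 15.2%. The change from day 7 to day 14 in wildtype mice was -1.63 ± 0.33 (SE; 3.09-fold; limma adjusted p 0.0139), and in IFNAR-/- mice it was 0.13 ± 0.33 (95% interval -0.59 to 0.85). The genotype difference was -1.21 ± 0.33 at day 7 (adjusted p 0.0879) and 0.55 ± 0.33 at day 14 (0.381), and its change between the days, 1.75 ± 0.46, did not pass (limma adjusted p 0.0707). Without both arrays that stood apart the day 7 difference was -1.50 (adjusted p 0.0426) and the change between the days 2.16 (0.0414), and both passed.

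The call of Stat2 between days in wildtype mice was lost without wildtype day 7 mouse 2 (difference -1.37, limma adjusted p 0.0513) and without wildtype day 14 mouse 3 (-1.56, 0.0511). Fitted together with the 5' over 3' signal it was -1.09 (limma adjusted p 0.246). Both Stat2 probe sets were high in wildtype mice at day 7. On 1421911_at the wildtype day 7 arrays held 1.08, 1.37 and 0.45 against -0.23, -0.78 and 0.08 in IFNAR-/- mice, with no overlap and a limma difference of -1.28 ± 0.26 that passed over all probe sets (adjusted p 0.0366). Fitted with the 5' over 3' signal it was -1.14 (limma adjusted p 0.0764) and did not pass. The call held without IFNAR-/- day 7 mouse 3, IFNAR-/- day 14 mouse 2 or mouse 3, or wildtype day 7 mouse 3, and was lost without each of the other 8 arrays (limma adjusted p 0.0506 to 0.156). On 1450403_at the day 7 arrays held 0.99, 1.63 and 0.45 against -0.095, -0.94 and 0.68, which overlapped through IFNAR-/- mouse 3 (limma difference -1.14 ± 0.43, adjusted p 0.301).

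At day 14 the Stat2 probe sets parted. On 1421911_at the genotype difference was 0.075 ± 0.262 (limma adjusted p 0.913), while on 1450403_at the wildtype arrays held -1.37, -0.50 and -1.20 against 0.51, -0.61 and 0.079 in IFNAR-/- mice (1.02 ± 0.43, adjusted p 0.224). The correlation with the 5' over 3' signal over the 12 arrays was 0.49 for 1421911_at and 0.73 for 1450403_at. The correlation of 1450403_at with the Jak1 probe set 1433804_at was 0.82, as high as with the other Stat2 probe set, 0.82. Between days in wildtype mice both probe sets passed with limma, at -1.21 ± 0.26 (adjusted p 0.0222) and -2.05 ± 0.43 (0.0203), and neither did with the covariate (-0.85, 0.318 and -1.33, 0.315). Both calls were lost without wildtype day 7 mouse 1 (limma adjusted p 0.0806 and 0.0634), wildtype day 7 mouse 2 (0.0886 and 0.0823), wildtype day 14 mouse 1 (0.0693 and 0.0681) or wildtype day 14 mouse 3 (0.0766 and 0.0735), and when the poly-A signal entered the fit (0.0514 and 0.08).

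Irf9, the subunit that gives ISGF3 its DNA binding, was lower in IFNAR-/- cells on both days and is the member whose genotype difference passed the test. Wildtype mice held 0.67, 0.92 and 0.57 at day 7, and IFNAR-/- mice -0.24, -0.63 and 0.089. At day 14 wildtype mice held -0.11, 0.26 and 0.14, and IFNAR-/- mice -0.39, -0.62 and -0.53. The genotypes did not overlap on either day; 11.6% of all genes at day 7 and 13.3% at day 14 did not overlap in this direction. The difference was -0.98 ± 0.18 at day 7 (SE; 1.97-fold; limma adjusted p 0.0149), -0.61 ± 0.18 at day 14 (0.0739, which did not pass) and -0.79 ± 0.12 over both days (1.73-fold; 0.00638). The difference between the days' genotype differences was 0.37 ± 0.25 (limma adjusted p 0.48), with an interval of -0.17 to 0.92.

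Within each genotype the mean of Irf9 was lower at day 14, and neither difference passed with all arrays. In wildtype mice the difference was -0.62 ± 0.18 without overlap (limma adjusted p 0.0532, and 0.0219 without both arrays that stood apart). Wildtype arrays of both days did not overlap in this direction for 15.2% of all genes. In IFNAR-/- mice the difference was -0.25 ± 0.18 with overlap (limma adjusted p 0.355). Without both arrays that stood apart it was -0.023 (limma adjusted p 0.965). In the order of the means, wildtype day 7 (0.72 ± 0.18, SD) stood above wildtype day 14 (0.095 ± 0.187), IFNAR-/- day 7 (-0.26 ± 0.36) and IFNAR-/- day 14 (-0.51 ± 0.12). Only the first neighbouring pair did not overlap. The day 7 call was lost without IFNAR-/- day 7 mouse 1 (limma adjusted p 0.0566), without wildtype day 7 mouse 2 (0.0679) and in a fit of the day 7 arrays alone (0.068). The call over both days held without each array in turn, with differences from -0.88 to -0.70 and limma adjusted p from 0.00276 to 0.0213. Irf9 has 1 probe set, 1421322_a_at, whose correlation with the 5' over 3' signal was 0.14. With that signal as a covariate the limma differences were -0.89 at day 7 (adjusted p 0.0387) and -0.86 over both days (0.00873), and both still passed.

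**Figure D4:**
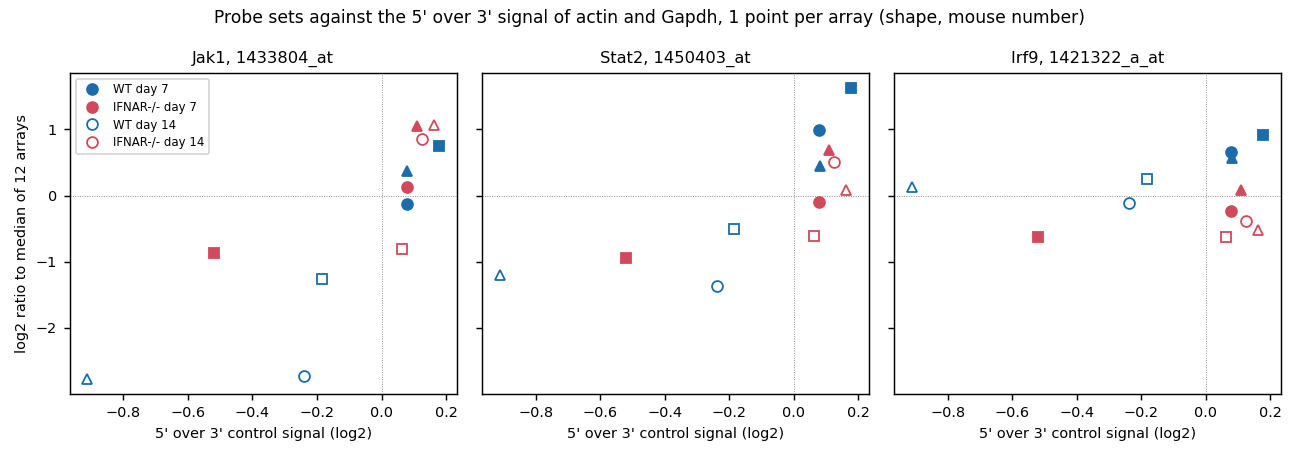
Log2 ratios of 3 probe sets (Jak1 1433804_at, Stat2 1450403_at and Irf9 1421322_a_at) against the 5' over 3' log2 signal of the actin and Gapdh controls, 1 point per array. Symbols are as in the plots by mouse, and the correlations are 0.81, 0.73 and 0.14.

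Medians of some cell type marker lists differed between genotypes on the same arrays, and those of others overlapped. Alveolar macrophages and dendritic cells carry CD11c. Whether cells of the other lists carried it was not measured here. The median over 9 of 12 alveolar macrophage markers overlapped between genotypes on both days. At day 7 it was 0.23, 0.16 and 0.43 in IFNAR-/- mice against 0.08, -0.06 and 0.71 in wildtype mice. At day 14 it was 0, -0.48 and -0.22 against -0.15, -0.68 and -0.41. The median over 12 of 13 dendritic cell markers at day 7 was -0.65, -0.69 and -0.44 in IFNAR-/- mice against 0.25, 0.48 and 0.05 in wildtype mice. The median over 11 of 13 T cell markers at day 7 was -0.78, -0.52 and -0.25 against 0.42, 0.29 and -0.02. At day 14 the T cell median was higher in IFNAR-/- mice, at 0.85, 0.70 and 0.21 against -0.35, -0.29 and -0.11. The dendritic cell median at day 14 was 0.11, 0.06 and 0.29 against -0.16, -0.07 and -0.07, so in both lists the direction between genotypes was opposite on the 2 days. The median over 7 of 8 NK cell markers was -0.29, -0.15 and -0.26 in IFNAR-/- mice at day 7 against 0.48, 0.11 and 0.12, and 0.40, 0.56 and -0.14 at day 14 against -0.38, -0.03 and -0.20, without overlap at day 7 and with overlap at day 14. The median over 7 of 9 neutrophil markers at day 14 was 0.26, 0.28 and 0.20 in IFNAR-/- mice against -0.14, -0.26 and -0.33. At day 7 it overlapped, at -0.06, 0.38 and 1.26 against -0.43, 0.29 and -0.32. The median over 5 of 8 monocyte markers was -0.08, -0.48 and -0.33 against -0.08, -0.04 and -0.05 at day 7. At day 14 it was 0.25, 0.27 and 0.36 against -0.15, 0.21 and 0. The median over 6 of 7 B cell markers overlapped at day 7. At day 14 it was 0.34, 0.41 and 0.06 against 0.06, -0.14 and -0.13. The lung epithelial and fibroblast medians overlapped at day 7 and were higher in IFNAR-/- mice without overlap at day 14. The endothelial median overlapped on both days. The part of any of these cells in the differences of Stat2 and Irf9 on either day was not tested.

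Irf1, an activator of interferon-gamma and type I interferon target genes, did not pass in any comparison. At day 7 wildtype mice gave 0.12, 0.40 and -0.81 and IFNAR-/- mice 0.27, -0.088 and 0.42. The day 14 arrays gave -0.74, -0.17 and -0.76 for wildtype and 0.066, 0.29 and -0.50 for IFNAR-/- mice. The genotypes overlapped on both days. The differences were 0.29 (95% interval -0.38 to 0.97) and 0.51 (-0.17 to 1.18), and both intervals include 0. The group means overlapped in the order IFNAR-/- day 7, IFNAR-/- day 14, wildtype day 7 and wildtype day 14.

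Irf2, which competes with IRF1 for the same elements, was lowest in IFNAR-/- cells at day 14. Wildtype mice gave 0.29, 0.30 and 0.051 at day 7, with IFNAR-/- mice at -0.072, 0.37 and -0.088. At day 14 the wildtype arrays were at -0.026, -0.006 and 0.19, with the IFNAR-/- arrays at -0.35, -0.61 and -0.27. All IFNAR-/- day 14 arrays lay below all other arrays. IFNAR-/- day 14 arrays lay below wildtype day 14 arrays without overlap for 13.3% of all genes. They lay below IFNAR-/- day 7 arrays without overlap for 17.8%. The difference from wildtype at day 14 was -0.46 ± 0.15 (limma adjusted p 0.0971) and from IFNAR-/- at day 7 -0.48 ± 0.15 (0.0557), and neither passed. At day 7 it was -0.15 ± 0.15 (0.821).

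The genes whose pattern over the 12 arrays was most like that of a member were listed by Pearson correlation; the arrays share the 4 groups, so these are descriptions. For Irf9 they were Oas2 (0.954), Trim30a (0.935), Daxx (0.934), Rtp4 (0.927) and Trim30d (0.923), of which Oas2, a sensor of double-stranded RNA, Trim30a and Rtp4 are known as interferon-stimulated genes. For Stat2 they were Herc6 (0.956), an interferon-stimulated ubiquitin ligase, Fgl2 (0.941), Hgf (0.939), Tbc1d9 (0.937) and Gbp7 (0.935), a guanylate-binding GTPase. For Ifnar1 they were Cnot6 (0.917), Creb5 (0.893), Nptn (0.889), Etv3 (0.884) and Tbc1d1 (0.876).

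Downstream of the transducers, the known ISGF3 target genes were lower in IFNAR-/- cells at day 7. Of 22 measured of 24 listed, 14 fell, 0 rose and all 22 lay below 0; their median was -1.45, where the median of all genes was -0.001 (limma, threshold as above). The lowest p were those of Oas1a, a sensor of double-stranded RNA, at -3.50 ± 0.21, Trim30a at -1.595 ± 0.155, Oas3 at -2.81 ± 0.28 and Mx1, an antiviral GTPase, at -2.94 ± 0.30. At day 14, 2 of the 22 fell, Oas1a (-1.79 ± 0.21) and Ifit1, which binds foreign RNA caps (-2.04 ± 0.44), with a median of -0.22. From day 7 to day 14, 18 of the 22 fell in wildtype mice (median -1.49), and in IFNAR-/- mice 6 fell and 1 rose (median -0.33). The change of the genotype difference between the days passed for 9 of them, all upward. Of all genes, 2.64% passed in either direction at day 7 and 5.04% at day 14. Between days 7.98% passed in wildtype mice and 12.3% in IFNAR-/- mice, and 2.48% passed for the change of the genotype difference. The same shares stand beside the counts of the other lists below. Without both arrays that stood apart 17 of the 22 targets fell at day 7, 4 at day 14 and 20 in wildtype mice between the days. The change of the genotype difference then passed for 11 of them. Of all genes 551, 932, 2428 and 579 passed these tests in that fit. Fitted together with the 5' over 3' signal the counts of targets were 11, 0, 8 and 0, and the median at day 7 was -1.38. Only 325, 37, 154 and 3 of all genes passed in the fit with that signal.

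**Figure D5:**
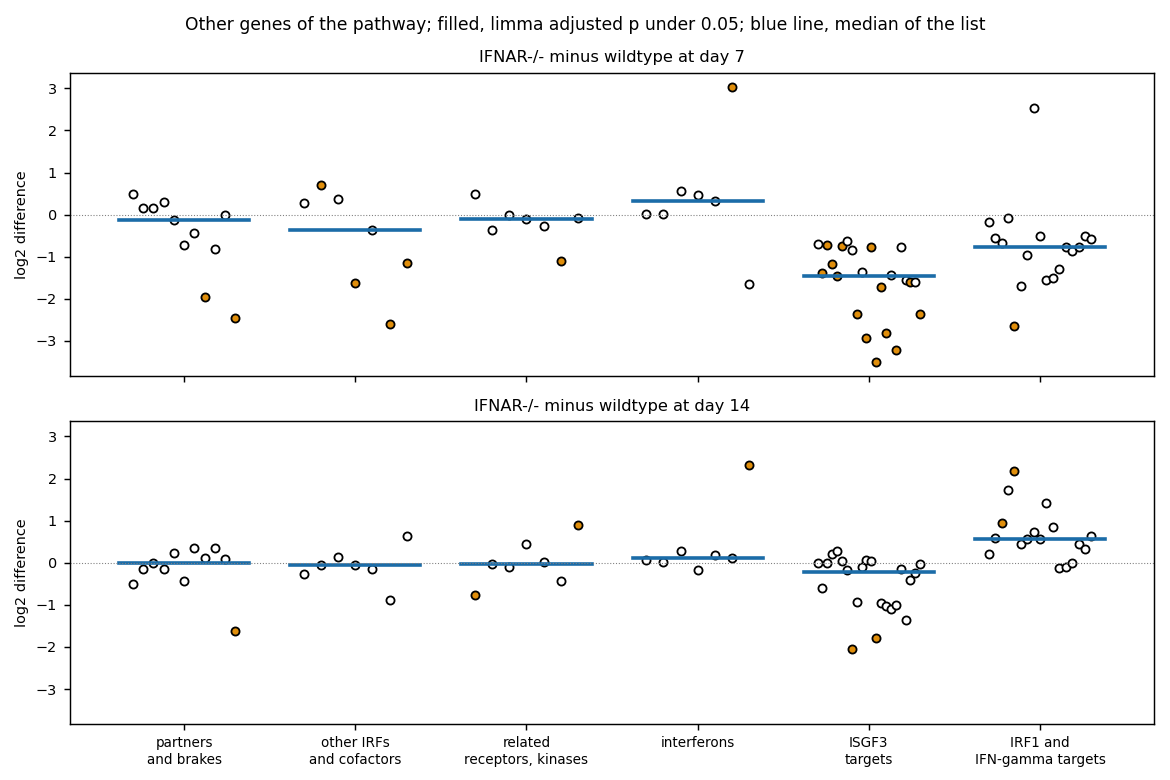
Log2 differences, IFNAR-/- minus wildtype, of the other genes of the pathway at day 7 (top) and day 14 (bottom), 1 point per gene in 6 lists; filled points passed limma's adjusted threshold and blue lines are the list medians. The ISGF3 targets lie below 0 at day 7 with a median of -1.45 and nearer 0 at day 14, with a median of -0.22.

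Targets of IRF1 and interferon-gamma took another course. At day 7, 16 of 17 measured of 18 listed had a difference below 0, but only Cxcl9, a chemokine for T cells, fell (-2.64 ± 0.52; median of the list -0.76). At day 14, Cxcl9 (2.18 ± 0.52) and Ciita, the master regulator of MHC class II genes (0.94 ± 0.22), rose and 0 fell, with a list median of 0.58. Without both arrays that stood apart 6 fell and 1 rose (Ido1) at day 7, where 551 of all genes passed. At day 14 Ciita then rose while the call of Cxcl9 was lost (limma adjusted p 0.0771). In the fit that held the 5' over 3' signal 0 passed on either day, where 325 and 37 of all genes did. The T cell markers given above moved the same way between genotypes on the same days, and their part in this list was not tested.

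Of the brakes of the pathway, Socs1 and Usp18 fell at day 7. Of 11 measured of 12 listed partners, adaptors and brakes, Socs1, an inhibitor of the kinases, fell by 1.96 ± 0.28 and Usp18, a protease that also blocks IFNAR2, fell by 2.45 ± 0.36; 0 rose, with a list median of -0.13. Pias1, an inhibitor of STAT proteins, rose as well at day 7 in the fit without both arrays that stood apart (0.48, limma adjusted p 0.0481). Socs1 held -2.53, -2.58 and -2.22 in IFNAR-/- mice at day 7 against -0.32, 0.034 and -1.17 in wildtype mice. At day 14 it held 0.15, 0.62 and 0.13 against -0.051, 0.58 and 0.023, with overlap. Usp18 was lower without overlap on both days and fell at day 14 as well, by 1.62 ± 0.36 (limma adjusted p 0.0274). It was the only gene of the 11 to pass there. In the fit that held the 5' over 3' signal 0 of the 11 passed there, where 37 of all genes did.

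Among other interferon regulatory factors and their cofactors, 3 fell and 1 rose at day 7. Of 7 measured of 8 listed, Irf7, which amplifies interferon production, fell by 2.59 ± 0.36 at day 7, Irf8 by 1.15 ± 0.25 and Irf4 by 1.63 ± 0.36, and the cofactor gene Irf2bp2 rose by 0.72 ± 0.13. The call of Irf4 was lost without both arrays that stood apart (limma adjusted p 0.0572); fitted together with the 5' over 3' signal Irf4 (0.0764) and Irf8 (0.0887) were lost, while Irf7 and Irf2bp2 passed. Irf8 and Irf4 are also needed for the development of dendritic cells, whose markers were lower in the same arrays; their part was not tested. Irf7 held -0.08, 0.11 and 1.23 in IFNAR-/- mice against 2.80, 3.65 and 2.60 in wildtype mice. At day 14, 0 of the 7 passed with limma; Irf8 and Irf7, with the lowest p, had unadjusted p of 0.0294 and 0.0331 and differences of 0.63 ± 0.25 (adjusted p 0.181) and -0.88 ± 0.36 (0.195).

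Of the receptors and kinases of related interferon families, 7 measured of 8 listed, Jak2, a kinase of the interferon-gamma receptor, fell at day 7 by 1.10 ± 0.21, and 0 rose. It held -1.31, -1.49 and -1.14 in IFNAR-/- mice against -0.091, -0.01 and -0.53 in wildtype mice. At day 14 Jak3, a kinase of lymphocyte cytokine receptors, rose by 0.91 ± 0.15 and Ifngr1, the ligand-binding chain of the interferon-gamma receptor, fell by 0.78 ± 0.19. The call of Ifngr1 was lost without both arrays that stood apart (limma adjusted p 0.0815), and those of Ifngr1 (0.162) and Jak3 (0.162) in the fit that held the 5' over 3' signal. The part of T cells, whose markers were higher in the same arrays, in the value of Jak3 was not tested.

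Among the ligands, Ifnb1 rose at day 7 in the mice without the receptor. Of 7 measured of 11 listed interferon genes, Ifnb1, the gene of interferon beta, rose at day 7 by 3.03 ± 0.34 and was the only one to pass with all arrays (limma adjusted p 0.000908); without both arrays that stood apart Ifna4, of the interferon alphas, passed too (0.55, 0.0467). It held 2.44, 3.65 and 2.09 in IFNAR-/- mice against -0.38, -0.33 and -0.22 in wildtype mice. At day 14 its arrays overlapped, at -0.20, 0.31 and -0.076 against -0.55, 0.043 and 0.20. There Ifng, which encodes interferon-gamma, rose by 2.32 ± 0.54 (limma adjusted p 0.033), at 2.67, 2.28 and 0.95 against -1.02, 0.019 and -0.051. That call was lost without both arrays that stood apart (2.16, limma adjusted p 0.0844) and in the fit that held the 5' over 3' signal (2.28, 0.269). T cells and NK cells are known sources of Ifng; the medians of their markers at day 14 are given above, and their part in this value was not tested.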

How the data were processed

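RNA of pulmonary CD11c+ cells was measured on 12 Affymetrix arrays, 1 per mouse, with 3 mice in each of 4 groups; groups were read from the sample descriptions. The values deposited by the authors are linear ratios; per the submitters' processing notes RMA was used, with no version, and its other settings are not given in the sources used here. The reference of each ratio was read from the values: the median of a probe set over all 12 arrays lay within 0.02 of 1 for 100% of probe sets. Brightness and signal over background are therefore unknown, no dim probe set could be left out, so precision rests on how many arrays there are. Ratios were taken to log2 with no further normalization. A gene's value is the mean over all probe sets annotated with its symbol alone, for 18193 genes from 34945 of 45101 probe sets.

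A model with 1 mean per group was fitted to all genes with limma 3.58.1 in R 4.3.3 (8 residual degrees of freedom, prior 3.21), with two-sided tests and Benjamini-Hochberg adjustment over all genes, threshold 0.05. The script was tested on simulated data. Errors are standard errors of the fit unless marked SD. Named list genes are the up to 4 of lowest p past the threshold per list and genotype comparison, or the 2 of lowest p where none passed. The 8 genes and all lists were chosen with earlier results of these data known, and single probe set refits were added after the values were seen. Counts and calls of the lists under alternatives were likewise added after the values were seen. The labels do not say whether mice with the same number were handled together, and the number was left out of the main fit. Of 18 pairs with the same number 3 had residual correlations above 0.1, which cannot decide the question. Alternatives were other summaries of probe sets, normalizations, priors and weights, the number as a block, fewer arrays, and control signals as covariates.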

Additional observations from a re-analysis of the deposited data

Results flagged for a closer look

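No member's genotype difference changed between the days past the threshold; 12 other genes named above did, by the limma interaction test over all genes (difference at day 14 minus that at day 7, Benjamini-Hochberg adjusted p under 0.05). Among the ISGF3 targets this change was 3.02 ± 0.42 for Mx1, 1.79 ± 0.40 for Oas3, 1.71 ± 0.30 for Oas1a and 1.18 ± 0.22 for Trim30a, and the differences at day 14 were nearer 0 than those at day 7. Among the targets of IRF1 and interferon-gamma it was 4.82 ± 0.74 for Cxcl9 and 1.62 ± 0.31 for Ciita. For the interferon genes it was 3.96 ± 0.76 for Ifng and -2.92 ± 0.48 for Ifnb1. For the regulators and receptors it was 2.07 ± 0.40 for Socs1, 1.77 ± 0.36 for Irf8, 0.99 ± 0.21 for Jak3 and -1.28 ± 0.27 for Ifngr1. For Cxcl9, Ciita, Ifng, Irf8, Socs1, Jak3, Ifngr1 and Mx1 the signs of the genotype differences were opposite on the 2 days, and of these only Cxcl9 passed on both days. For Mx1, Socs1 and Irf8 at day 14 and for Jak3 at day 7 the arrays of the genotypes overlapped, so a reversal is not established. The changes of Mx1 and Socs1 were close in size to their day 7 differences, -2.94 and -1.96. The adjusted p ran from 0.00867 (Mx1) to 0.0438 (Oas3). When the 5' over 3' signal entered the fit only 3 of all genes passed this test, where 451 did without it, and none of the 12 named here was among them (limma adjusted p 0.0784 to 0.369). In the fit without both arrays that stood apart, Ifngr1 (limma adjusted p 0.0738) and Oas3 (0.0658) did not pass and the other ten did.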

How the results depend on the processing

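Of 1178 values of the 8 genes in 6 comparisons under the alternatives, 1093 kept their direction and side of the threshold, 8 lost a call, 41 gained one and 36, none of them called, changed sign. The cause of a change was not tested.

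The number of members called between genotypes at day 7, 1 as reported, was 2 with each probe set tested by itself or with quantile normalization again, 3 with array weights or without both arrays that stood apart, and 0 with only the arrays compared or with a 2-fold minimum; leaving out each array gave 0 to 2. At day 14 it was 0 as reported, 1 by single probe sets, by the most variable probe set or without both arrays, and 2 with weights; leaving out arrays gave 0 to 1. Over both days it was 1 as reported, 2 by single or most variable probe sets or weights, and 0 with the 2-fold minimum. Between days in wildtype mice it was 1 as reported, 2 by single or most variable probe sets, quantile normalization, a trended robust prior or weights, 3 with only the arrays compared or without both arrays, and 0 with the 5' over 3' covariate; leaving out arrays gave 0 to 3. In IFNAR-/- mice it was 0 as reported and 1 with the trended robust prior, with weights or without both arrays. For the change of the genotype difference it was 0 as reported, 1 with quantile normalization or without both arrays and 2 with weights. Leaving out arrays gave 0 to 1. The count over all genes moved with the setting too. At day 7 it was 481 as reported, 233 with the 2-fold minimum and 1882 with weights. The counts of members are therefore to be read beside the ranges over all genes given below.

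Signs changed for these differences. At day 7 Tyk2 was -0.096 by its most variable probe set, -0.016 with weights, -0.073 with the poly-A covariate, -0.057 without both arrays and -0.057 to 0.078 with an array left out; Ifnar2 was 0.089 by its most variable probe set and -0.322 to 0.1 with an array left out; Jak1 was 0.065 with the 5' over 3' covariate and -0.294 to 0.086 with an array left out; Irf1 was -0.065 to 0.544 with an array left out. At day 14 Ifnar1 was 0.01 with quantile normalization, 0.189 with weights, and 0.232 without both arrays; with an array left out it ran from -0.468 to 0.232, the latter without IFNAR-/- mouse 2. Between days in wildtype mice Ifnar1 was 0.366 and Ifnar2 0.126 by the most variable probe set; Ifnar1 was 0.177 and Tyk2 0.065 with the 5' over 3' covariate; Ifnar2 was 0.079 with the poly-A covariate. With an array left out Ifnar2 was -0.29 to 0.131 and Tyk2 -0.095 to 0.03. In IFNAR-/- mice, with the 5' over 3' covariate, Jak1 was -0.046 and Stat2 -0.093; with an array left out Jak1 was -0.063 to 0.32 and Stat2 -0.195 to 0.423. For the change of the genotype difference Ifnar2 was 0.547 by single probe sets; Irf1 was -0.131 with weights, -0.251 with the 5' over 3' covariate and -0.036 to 0.573 with an array left out; Irf2 was 0.017 with that covariate.

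With the mouse number as a replicate block the same members passed, Irf9 at day 7 (limma adjusted p 0.0343) and over both days (0.0165) and Stat2 between days in wildtype mice (0.0309); the numbers of members called stayed at 1, 0, 1, 1, 0 and 0. The highest and lowest residual correlations of arrays with the same number were 0.23 and -0.4, and 3 of 12 arrays correlated best with their own number. Over all genes the counts moved far more. At day 7 they ran from 233 (2-fold minimum) to 1882 (weights), at day 14 from 37 (5' over 3' covariate) to 1899 (weights), and over both days from 181 to 2221. Between days they ran from 154 (5' over 3' covariate) to 2688 in wildtype and from 705 to 4576 in IFNAR-/- mice. For the change of the genotype difference the range was 3 to 1765. With 1 array left out the lowest and highest counts over the comparisons were 138 and 2520. As levels are ratios, what signal over background limits could not be told.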
